A study of Caenorhabditis elegans with 2 samples.

Results

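The microRNA (miRNA) genes of Caenorhabditis elegans were examined for binding of the homeodomain protein DVE-1 in late embryos. All genes that Ensembl release 115 annotates as miRNA on the nuclear chromosomes of WBcel235 (ce11) were taken, which gave 261 of 46890 nuclear genes. After 5 overlapping pairs were merged, 256 loci remained. A locus was called bound when the summit of a peak, its highest point, lay in a window that began 1000 bp before a member's annotated 5′ end and ended 200 bp after it. At 16 of the 256 loci the window held a summit of the authors' thresholded list of 1447 peaks, and these 16 loci shared 11 distinct summits. All 6 genes of the miR-51 seed family (mir-51 to mir-56) were among them. So were mir-1, the mir-229 cluster (mir-229, mir-64, mir-65 and mir-66), mir-353, mir-354, mir-4920, mir-5549 and mir-5595.

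The study measured DVE-1 with ChIP-seq (immunoprecipitation of chromatin followed by sequencing) in 2 biological replicates of 1 group. Both were whole hermaphrodites of strain OP398 at the late embryonic stage, with the mutation unc-119(tm4063) III and the insertion wgIs398, a transgene whose DVE-1 ends in a GFP-FLAG tag. An antibody against GFP pulled down the tagged protein from sonicated chromatin, and 1 control served both replicates. The labels name no change to the animals' own dve-1 gene. The promoter of the transgene is not given in the sources used here, and no untagged strain was analysed here. Cells of all tissues were mixed, so a peak does not say in which cells the protein was bound.

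A miRNA is a short RNA cut from a hairpin in a longer transcript. It is loaded into an Argonaute protein and guides it to messenger RNAs, which are then repressed. Pairing rests mainly on the seed, bases 2 to 8 from the 5′ end of the mature miRNA, so miRNAs with the same seed form a family with overlapping targets. The miR-51 family of worms is related to an ancient group of animal miRNAs, is present in many tissues from the embryo onward, and embryos that lack the whole family die. DVE-1 is best known as a regulator that helps to switch on mitochondrial chaperone genes when protein folding in mitochondria fails.

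Mature miRNAs of both bound seed families are shown, all but that of mir-65, because 10 of the 16 bound genes belong to them, with mir-63 as the other gene that carries the mir-229 seed. They were read from RefSeq's genome and annotation of WBcel235 and are written 5′ to 3′ with the seed in capitals.
mir-51: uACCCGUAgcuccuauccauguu
mir-52: cACCCGUAcauauguuuccgugcu
mir-53: cACCCGUAcauuuguuuccgugcu
mir-54: uACCCGUAaucuucauaauccgag
mir-55: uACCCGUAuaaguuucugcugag
mir-56: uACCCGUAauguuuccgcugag
mir-229: aAUGACACugguuaucuuuuccaucg
mir-64: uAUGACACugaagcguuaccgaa
mir-66: cAUGACACugauuagggauguga
mir-63: uAUGACACugaagcgaguuggaaa

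The 6 genes of the first family share the seed ACCCGUA and differ behind it. Counted from the 5′ end, mir-52 and mir-53 differ by the single substitution A12U. The second seed, AUGACAC, is carried by 5 genes.

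Windows of 201 bp centred on the thresholded summits at both families are shown next, since they are the stretches under those peaks. In replicate 2 the summits lay within 31 bp of these centres. In replicate 1 they lay 110 bp away at mir-54 and 113 bp at mir-52, so outside the windows. At mir-229, mir-51 and mir-53 the replicate 1 summits lay 90, 42 and 3 bp away. They come from the RefSeq WBcel235 (ce11) sequence and are written on the strand of the miRNA. Capitals mark matches on either strand to TATAAA, to the palindrome CACGTG or to GAGAGA, which reads TCTCTC on the opposite strand. The windows are chrX:13145222-13145422 on the minus strand before mir-54, chrIV:14033748-14033948 on the plus strand at mir-52, chrIV:11026073-11026273 on the minus strand at mir-51, chrIV:11027706-11027906 on the minus strand at mir-53, and chrIII:2172040-2172240 on the plus strand before mir-229.
mir-54: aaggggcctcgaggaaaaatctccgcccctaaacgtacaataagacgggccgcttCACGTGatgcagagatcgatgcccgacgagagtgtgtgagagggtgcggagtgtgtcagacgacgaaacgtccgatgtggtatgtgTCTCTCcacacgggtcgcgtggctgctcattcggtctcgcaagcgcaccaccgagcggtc
mir-52: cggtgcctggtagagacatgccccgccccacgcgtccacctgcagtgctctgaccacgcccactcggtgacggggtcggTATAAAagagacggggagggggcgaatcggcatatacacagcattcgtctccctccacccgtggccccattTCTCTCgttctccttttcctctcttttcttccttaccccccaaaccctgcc
mir-51: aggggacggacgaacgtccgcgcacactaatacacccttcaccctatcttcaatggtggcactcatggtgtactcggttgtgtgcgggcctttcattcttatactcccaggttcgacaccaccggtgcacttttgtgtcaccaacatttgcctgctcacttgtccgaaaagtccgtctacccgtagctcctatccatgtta
mir-53: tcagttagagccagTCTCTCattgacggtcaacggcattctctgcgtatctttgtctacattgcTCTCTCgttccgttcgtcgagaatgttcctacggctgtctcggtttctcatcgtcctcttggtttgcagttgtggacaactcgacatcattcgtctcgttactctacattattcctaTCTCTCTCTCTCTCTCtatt
mir-229: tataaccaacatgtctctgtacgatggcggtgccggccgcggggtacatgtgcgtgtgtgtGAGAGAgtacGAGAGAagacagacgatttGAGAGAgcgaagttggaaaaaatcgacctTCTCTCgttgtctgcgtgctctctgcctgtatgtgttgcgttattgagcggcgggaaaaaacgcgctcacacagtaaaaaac

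The last 40 bases of the mir-51 window lie in its hairpin and hold the DNA of the mature miRNA printed above, while the other 4 windows lie outside any hairpin. The 4 windows of the miR-51 family had little letter sequence in common. The longest stretch shared by all 4 was 6 bp, and pairs shared 7 to 10 bp, with the longest between mir-52 and mir-53. Their GC content was 59.2% before mir-54, 60.7% at mir-52, 52.2% at mir-51 and 46.3% at mir-53. The window before mir-229 had 50.7%. Over all 1440 nuclear windows of the thresholded list, GC ran from 27.4% to 69.7% with a median of 45.8%, so all 5 windows lay above the median. The windows at the other bound miRNA loci all lay below it, from 36.8% at mir-354 to 44.3% at mir-1.

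Short motifs were searched on both strands of these windows, and they were chosen after the windows had been seen. None of the 4 motifs holds another. TATAAA, the core of a promoter element near many transcription starts, occurred in 1 of the 11 windows at miRNA loci (mir-52) and in 137 of all 1440 windows (9.51%). CACGTG, an E-box, occurred in 2 of the 11, before mir-54 and at mir-5595, and in 67 of the 1440 (4.65%). GAGAGA occurred in 6 of the 11 and in 503 of the 1440 (34.9%). TTAGGC, the repeat unit of worm telomeres, occurred in none of the 11 and in 347 of the 1440 (24.1%). The windows are few, and a match describes letters only.

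The peaks at the miR-51 family lay at 4 places. The values given for each are the authors' enrichment signal and its rank in the list it comes from. At the bound loci these peaks have the same signals and ranks in the authors' pooled list, described below, so the thresholded and pooled lists share a scale. Each replicate's list has a scale of its own, so replicate signals are compared only within a list. Thresholded signals spanned 78.9 to 917 (median 109.7), those of the 11568 peaks of replicate 1 from 15.3 to 369 (median 19.7) and those of the 15750 peaks of replicate 2 from 15.5 to 554 (median 21.0).

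The strongest of the 11 summits at miRNA loci served mir-54 (WBGene00003282, chrX:13144996-13145094), mir-55 (WBGene00003283, chrX:13144827-13144924) and mir-56 (WBGene00003284, chrX:13144691-13144787), all on the minus strand. The peak, chrX:13145140-13145503, had a signal of 164 in the thresholded list (rank 259 of 1447), 67.7 in replicate 1 (rank 272) and 107 in replicate 2 (rank 212). It ranked high in both replicates, in the top 2.35% and 1.35% of their lists. The summit lay 228 bp before the hairpin of mir-54, 398 bp before that of mir-55 and 535 bp before that of mir-56. The 3 hairpins and the peak sit in an intron of F09A5.3, which is transcribed from the opposite strand, and the nearest protein-coding 5′ end was 3721 bp from the summit. The closest 5′ end of any gene was that of the ncRNA gene F09A5.11, at 51 bp.

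At mir-52 (WBGene00003280, chrIV:14034008-14034107, plus strand) the peak chrIV:14033666-14034029 had a signal of 146 in the thresholded list (rank 349), 75.2 in replicate 1 (rank 192) and 89.5 in replicate 2 (rank 350). Its summit lay 160 bp before the hairpin in intergenic sequence, 9932 bp from the nearest protein-coding 5′ end (Y37A1B.7) and 18 bp from that of an ncRNA gene. Here too the locus ranked high in both replicates. In replicate 1 the summit was 113 bp from the thresholded summit, and in replicate 2 it was 4 bp away.

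The genes mir-51 (WBGene00003279, chrIV:11026013-11026112) and mir-53 (WBGene00003281, chrIV:11027593-11027691) are neighbours on the minus strand, and each had a peak of its own. The mir-51 peak, chrIV:11025991-11026354, had a signal of 119 in the thresholded list (rank 601), 32.9 in replicate 1 (rank 1667) and 91.6 in replicate 2 (rank 326). The mir-53 peak, chrIV:11027624-11027987, had 81.5 (rank 1366), 44.8 in replicate 1 (rank 807) and 30.8 in replicate 2 (rank 3419). The replicates ordered the neighbours differently: mir-53 was the stronger in replicate 1 and mir-51 in replicate 2. The summits lay 61 bp before mir-51 and 115 bp before mir-53, both intergenic. The nearest protein-coding gene was hrg-5, with its 5′ end at 3255 bp from the mir-51 summit and 1622 bp from the mir-53 summit. With the 5′ ends of all its transcripts the distances were 3012 bp and 1379 bp. The ncRNA gene F36H1.17 began 46 bp from the mir-51 summit.

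**Figure D1:**
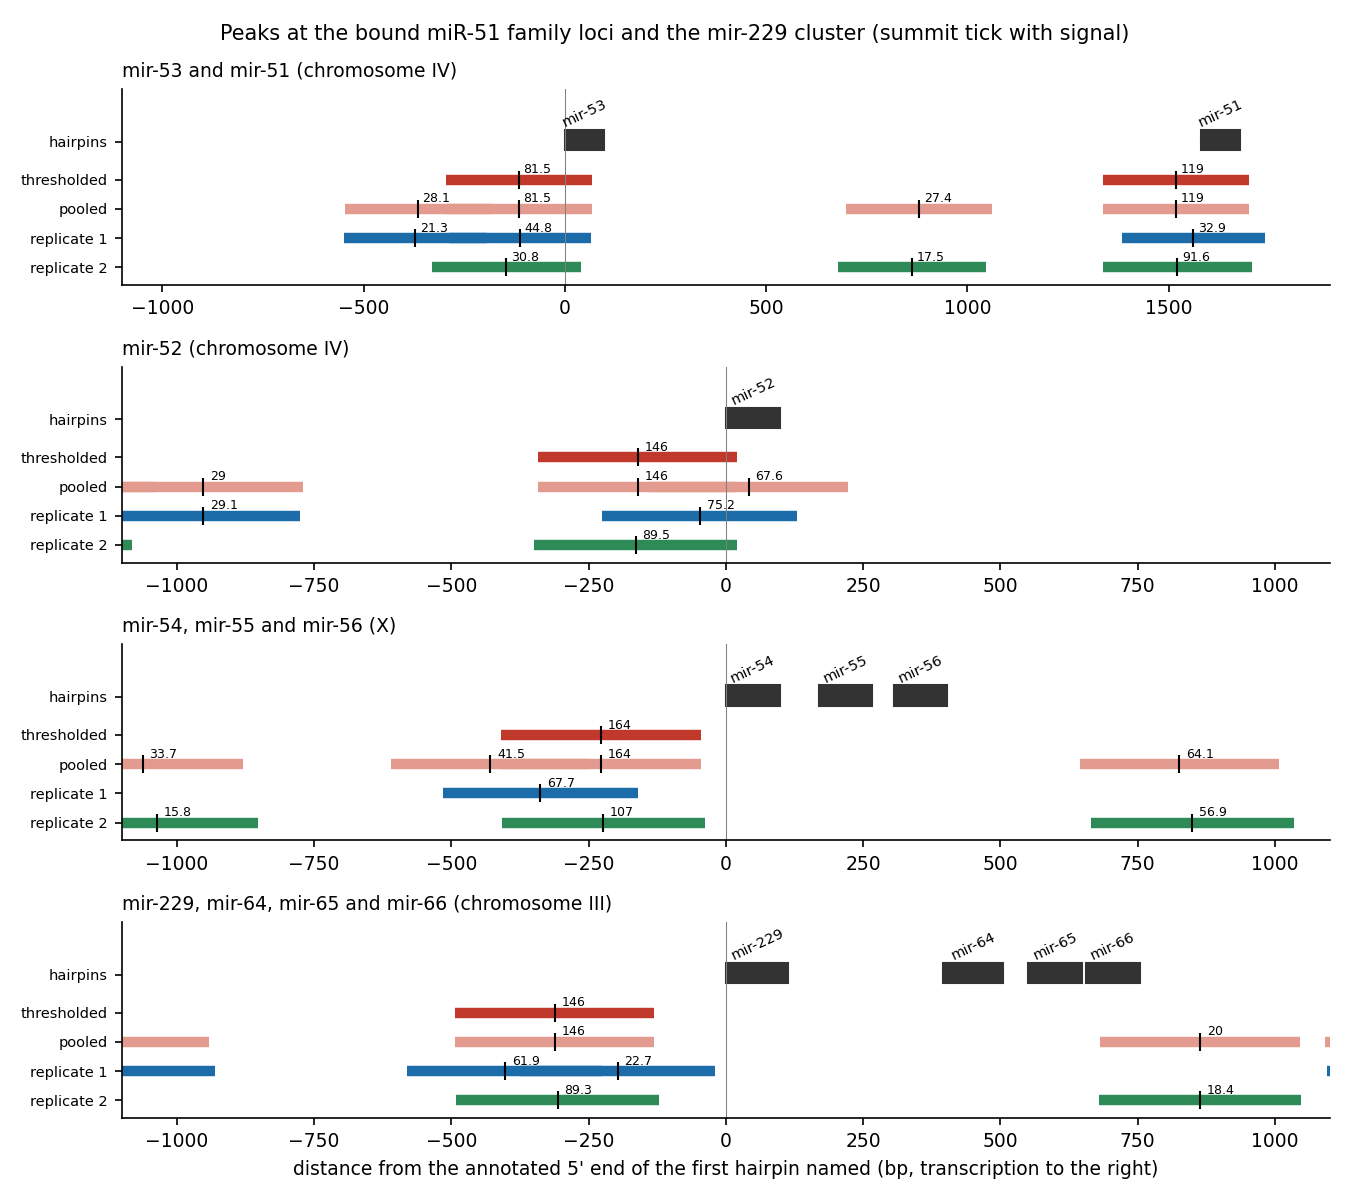
Peaks of the 4 lists around the bound loci of the miR-51 family and the mir-229 cluster, against the distance in bp from the 5′ end of the first hairpin named, with transcription to the right. Bars are peaks, black ticks are summits and the small numbers are signals. The thresholded and pooled lists share a scale, and each replicate has its own. A thresholded summit lies before the first hairpin of each group, at 228 bp for mir-54 and 312 bp for mir-229. The gene mir-51, which lies behind mir-53, has a separate peak.

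The second seed family was reached through a single peak. The genes mir-229 (WBGene00003322, chrIII:2172452-2172566), mir-64 (WBGene00003292, chrIII:2172848-2172957), mir-65 (WBGene00003293, chrIII:2173002-2173101) and mir-66 (WBGene00003294, chrIII:2173108-2173206) follow each other on the plus strand in an intron of gcn-1, a regulator of translation that is transcribed in the same direction. The peak, chrIII:2171958-2172321, had a signal of 146 in the thresholded list (rank 348), 61.9 in replicate 1 (rank 347) and 89.3 in replicate 2 (rank 352). Its summit lay 312, 708, 862 and 968 bp before the hairpins and 20195 bp from the 5′ end of gcn-1. The nearest 5′ end of any gene was that of mir-229 itself. The family's other gene, mir-63 (chrX:17598765-17598868), was not bound by the thresholded list. In the pooled list of 30000 peaks, called by the authors on both replicates together as input for the reproducibility test (IDR), it had a summit with a signal of 33.2 (rank 8966), 29 bp inside the hairpin. Replicate 1 had no summit in its window and replicate 2 had 24.1.

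The remaining intergenic locus far from protein-coding genes was mir-1 (WBGene00003260, chrI:6172662-6172757, minus strand), a miRNA of muscle that is conserved across animals. Its peak, chrI:6173043-6173406, had a signal of 98.9 in the thresholded list (rank 908), 36.2 in replicate 1 (rank 1340) and 62.2 in replicate 2 (rank 845). The summit lay 468 bp before the hairpin, 1970 bp from the 5′ end of T09B4.3 and 226 bp from that of the ncRNA gene T09B4.17. The locus was in the lower part of the 11 in the thresholded list and in replicate 1, and at their median in replicate 2.

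The gene mir-5595 (WBGene00195007, chrII:14399565-14399629, minus strand) lies in an intron of nurf-1, which encodes the large subunit of a chromatin remodelling complex and runs on the opposite strand. Its peak, chrII:14399590-14399953, had a signal of 108 (rank 752), 57.3 in replicate 1 (rank 426) and 56.6 in replicate 2 (rank 1018). The summit was 143 bp before the hairpin. By gene 5′ ends it was far from protein-coding genes, with the nearest (F26H11.4) at 8840 bp, but a nurf-1 transcript began 280 bp from it.

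At the other 4 bound loci a protein-coding gene shared the summit. For mir-5549 (WBGene00219220, chrIII:6971976-6972085, minus strand) the summit of chrIII:6971913-6972276 lay 10 bp before the hairpin, and also in the windows of eef-1A.1, a translation elongation factor gene, and rfc-4, a clamp loader gene whose 5′ end was 158 bp away. Its signal was 140.5 (rank 397), 65.2 in replicate 1 (rank 304) and 72.9 in replicate 2 (rank 603). For mir-354 (WBGene00014612, chrI:14468382-14468491, minus strand), which overlaps an exon of the ribosomal protein gene rps-20, the summit of chrI:14469152-14469515 lay 843 bp before the hairpin and in the windows of rps-20 and ekl-4. Its signal was 136 (rank 427), 78.5 in replicate 1 (rank 166) and 61.8 in replicate 2 (rank 859). Among the 11 summits, replicate 1 was highest at this one.

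For mir-353 (WBGene00023452, chrI:4585874-4585983, plus strand), in an intron of the ribosomal protein gene rpl-24.1, the summit of chrI:4584710-4585073 lay 982 bp before the hairpin and 223 bp from the 5′ end of its host. The window of rps-10, another ribosomal protein gene, held it too. The signal was 114 (rank 662), 53.6 in replicate 1 (rank 521) and 58.4 in replicate 2 (rank 952). The summit of the replicate 1 peak lay outside the window of mir-353. For mir-4920 (WBGene00219254, chrIV:8133417-8133472, minus strand), in an intron of sph-1, the summit of chrIV:8133587-8133950 lay 297 bp before the hairpin and 211 bp from the 5′ end of sph-1. The signal was 94.9 (rank 1008), 41.7 in replicate 1 (rank 957) and 42.6 in replicate 2 (rank 1808). At these 4 loci binding near the miRNA and near the protein-coding gene cannot be told apart.

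All 11 peaks overlapped a peak in each replicate's own list. The thresholded list was itself selected for reproducibility between the replicates, so its making favoured this overlap. In the thresholded list the signals of the 11 peaks spanned 81.5 to 164 (median 119) and their ranks 259 to 1366. In replicate 1 their signals ran from 32.9 to 78.5 (median 57.3) and their ranks from 166 to 1667. In replicate 2 the signals ran from 30.8 to 107 (median 62.2) and the ranks from 212 to 3419. The best of them, before mir-54, thus stood at rank 259 in a list that reached a signal of 917. No summit of the 11 was within 200 bp of a tRNA or snoRNA gene, and the nearest such gene was 357 bp from the mir-353 summit.

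**Figure D2:**
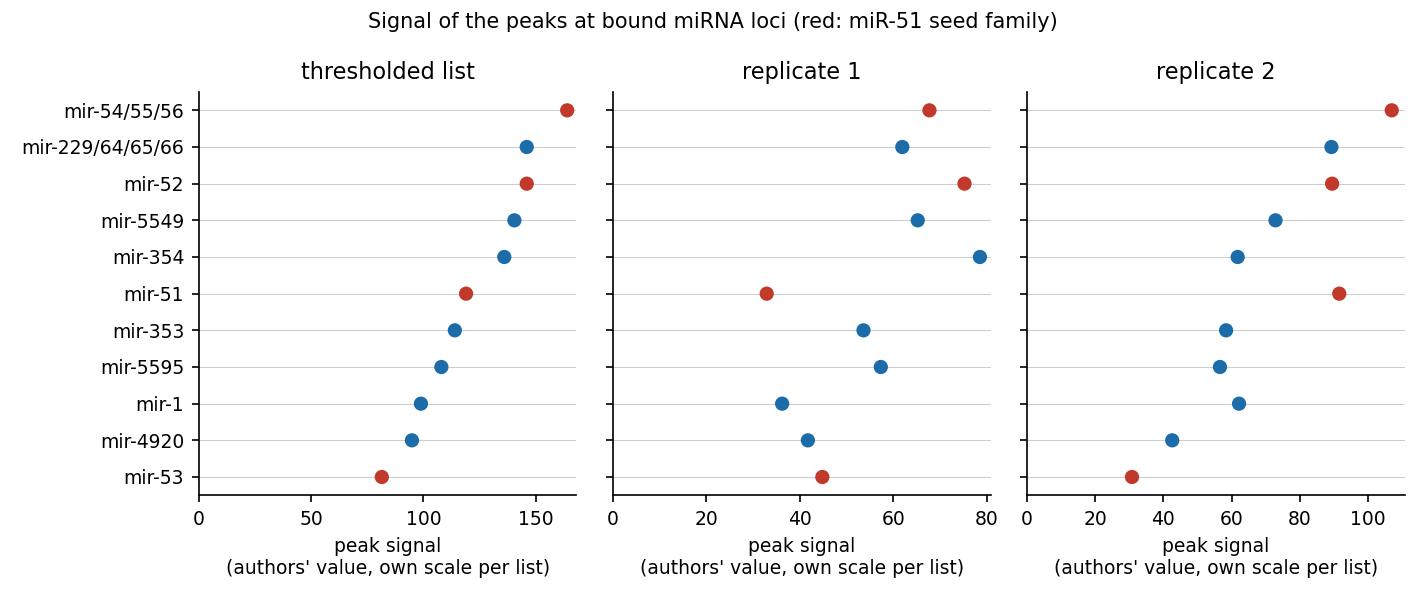
Signal of the peak at each of the 11 bound miRNA summits in the thresholded list and in the lists of replicates 1 and 2, each on its own scale from 0. Red points are the 4 summits of the miR-51 seed family. The mir-54/55/56 peak has the highest value in the thresholded list (164) and in replicate 2 (107), mir-354 in replicate 1 (78.5), and mir-53 has the lowest in the thresholded list (81.5) and in replicate 2 (30.8).

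Every one of the 16 genes had its thresholded summit upstream of the annotated 5′ end, at 10 to 982 bp with a median of 355 bp. For the 12 far from protein-coding genes the distances were 61 to 968 bp, again with a median of 355 bp. The window reached 1000 bp upstream and only 200 bp downstream, so upstream positions were favoured by its shape. The annotated 5′ end of most of these genes is the end of the hairpin, since the gene models were 52 to 1732 bp long with a median of 95 bp and only 4 exceeded 150 bp. The start of the primary transcript may lie further upstream and is not annotated for them.

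As a share, 16 of 256 miRNA loci were bound by the thresholded list, or 6.25% (exact Clopper-Pearson 95% interval 3.61 to 9.95%). Of 19973 protein-coding genes counted in the same way, 4.33% had a thresholded summit in the window. Of 5366 genes of the biotype ncRNA, which miRNA genes do not belong to, over 1 kb from protein-coding 5′ ends, 5.44% did. Windows of these ncRNA genes also hold the summits at mir-54, mir-52 and mir-51, so this set is not separate from the miRNA loci. Both background shares lay inside the interval of the miRNA loci, so the count was near the background and was not a result about miRNA genes as a class. The share moved with the window and the assignment: it was 3.91% (10 loci) with 500 bp upstream and 100 bp downstream, and 10.2% (26 loci) with 2000 bp and 500 bp. It was 1.56% (4 loci) when a summit went only to the nearest 5′ end of any gene, and 3.12% (8 loci) when it went to the nearest of protein-coding and miRNA genes. The background shares were counted with the first window and assignment only. The intervals cover counting error alone, and neighbouring loci that share 1 summit make them too narrow. No list was tested for enrichment.

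Loci far from and near to protein-coding genes had shares with overlapping intervals. Of 184 loci over 1 kb from any protein-coding 5′ end, 12 were bound through 7 summits (6.52%, interval 3.41 to 11.1%). Of the 72 loci closer than that, 4 were bound through 4 summits (5.56%, interval 1.53 to 13.6%). Those 4 are mir-5549, mir-354, mir-353 and mir-4920, and the 12 hold both seed families, mir-1 and mir-5595.

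Intronic loci had the higher share by this count. Of 95 loci inside an intron, 10 were bound through 5 summits (10.5%, interval 5.16 to 18.5%), against 5 of 149 intergenic loci through 5 summits (3.36%, interval 1.10 to 7.66%). The 2 intervals overlapped, and each group had 5 distinct summits. The interval of intronic loci lay above the 4.33% of protein-coding genes and held the 5.44% of ncRNA genes. When a summit went only to the nearest 5′ end among protein-coding and miRNA genes, an assignment chosen after seeing the data, the order turned narrowly. There were 3 intronic loci (3.16%) against 5 intergenic ones (3.36%), and in the pooled list 35.8% against 39.6%. With the nearest 5′ end of any gene, a planned assignment, the order held in the thresholded list, with 2 intronic loci (2.11%) against 2 intergenic ones (1.34%). In the pooled list the shares were then 28.4% against 29.5%. The intronic count was raised by the clusters, since 7 of the 10 loci belong to the mir-54 and mir-229 groups and share 2 summits. Of loci both intronic and over 1 kb from protein-coding 5′ ends, 8 of 63 were bound (12.7%, interval 5.65 to 23.5%), through 3 summits. That interval lay above both background shares, but 7 of the 8 loci share 2 of the summits, so the loci are not independent. Of intergenic loci at that distance, 4 of 115 were bound (3.48%, interval 0.956 to 8.67%), through 4 summits. Among intronic loci the share was 10.4% (7 of 67) where a member ran on the host's strand. Where members ran only on the other strand it was 10.7% (3 of 28). Of the 7, 1 is the merged locus of mir-55 and F09A5.15, bound only through mir-55 on the other strand. The mir-54 group, with its single summit, thus falls in both classes, so the 2 shares are not separate. Of the 12 loci that overlap an exon, 1 was bound, mir-354.

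In the pooled list, which also holds background by its authors' description, 134 of 256 loci had a summit in the window (52.3%, interval 46.0 to 58.6%), beside 41.5% of protein-coding genes and 45.2% of the ncRNA genes over 1 kb from protein-coding 5′ ends. Both background shares lay below this interval and the difference was not tested. Far loci had 95 of 184 (51.6%) and near ones 39 of 72 (54.2%). Intronic loci had 54 of 95 (56.8%, interval 46.3 to 67.0%) and intergenic loci 73 of 149 (49.0%, interval 40.7 to 57.3%). The lists of the replicates gave 76 of 256 loci in replicate 1 (29.7%, interval 24.2 to 35.7%) and 92 in replicate 2 (35.9%, interval 30.1 to 42.1%). Intronic loci with a summit numbered 37 of 95 in replicate 1 (38.9%) and 35 in replicate 2 (36.8%), and intergenic loci 36 of 149 (24.2%) and 53 (35.6%). The gap between intronic and intergenic loci was thus wide in replicate 1 and narrow in replicate 2.

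**Figure D3:**
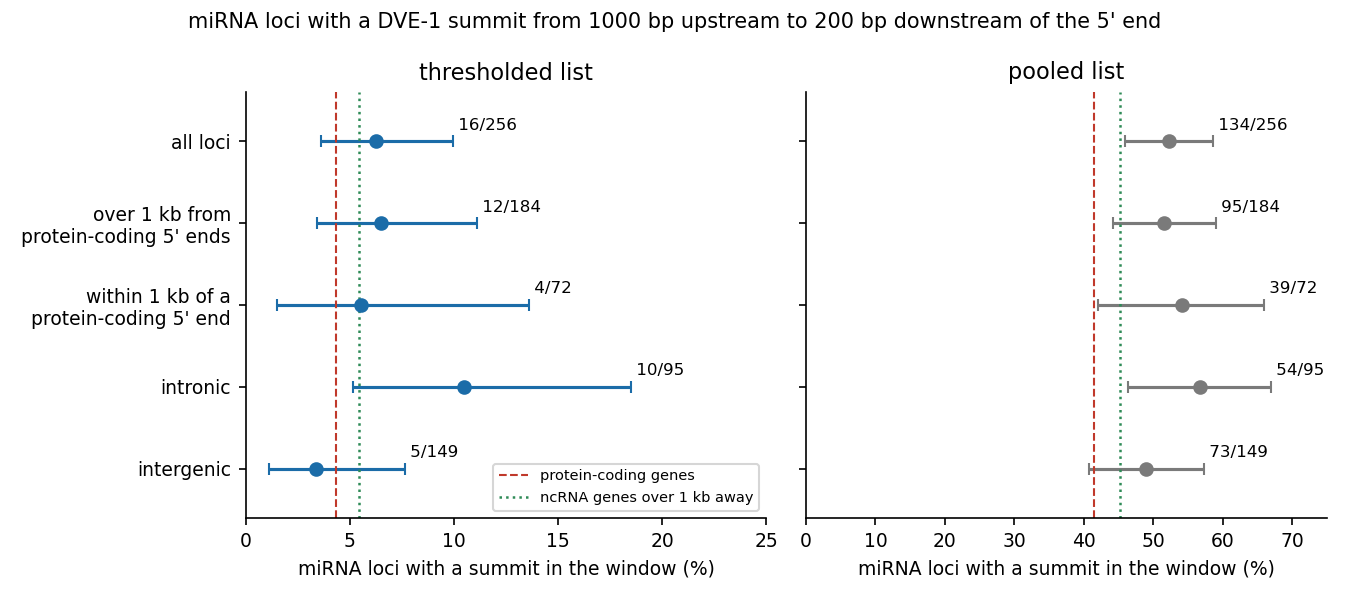
Share of miRNA loci, in percent, with a summit of the thresholded list (left) or the pooled list (right) in the window, for all loci and for classes by distance and context. Points are shares with bound and total counts beside them, bars are exact 95% intervals, and dashed and dotted lines give the share of protein-coding genes and of ncRNA genes over 1 kb from protein-coding 5′ ends. Of the 5 classes drawn for the thresholded list, the interval of intronic loci spans the ncRNA line at 5.44% only, and the other 4 span both lines.

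Counted by sequence length, the miRNA windows together covered 0.277 Mb and held 39.7 thresholded summits per Mb, beside 14.4 per Mb over the nuclear genome. Windows over 1 kb from protein-coding 5′ ends had 36.6 per Mb, from 7 summits, and those closer had 46.9 per Mb, from 4. Windows of the other ncRNA genes at over 1 kb, which share some sequence and summits with the miRNA windows, had 43.4 per Mb. Sequence at that distance from protein-coding 5′ ends outside the miRNA windows, which still includes the rest of those ncRNA windows, had 10.6 per Mb. The 36.6 per Mb of the far miRNA windows rests on 7 summits, so no order against the other ncRNA windows was read from it. By chromosome, bound genes numbered 3 of 33 on I, 1 of 49 on II, 5 of 27 on III, 4 of 50 on IV, 0 of 28 on V and 3 of 74 on X. The distinct summits behind them numbered 3, 1, 2, 4, 0 and 1.

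Seeds were read for 458 mature arms of 260 genes, and 16 seeds were carried by 3 or more genes. Of these seeds, 2 had members with a thresholded summit, ACCCGUA with 6 of 6 genes and AUGACAC with 4 of 5. The other 14 seeds, with 56 genes, had none. Of all miRNA loci, 6.25% had such a summit, and no seed was tested against that share. The 6 genes of the miR-51 family have 4 distinct summits, and the 4 of the mir-229 family share 1. When a summit went only to the nearest 5′ end of any gene, mir-53 (1 of 6) and mir-229 (1 of 5) alone were left. With only protein-coding and miRNA 5′ ends competing, the counts were 4 of 6 and 1 of 5. Among the strongest 1447 peaks of a single replicate, mir-53 was lost without replicate 1, and mir-51 and mir-66 without replicate 2. For mir-66 the replicate 1 summit at the mir-229 cluster fell outside its window.

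**Figure D4:**
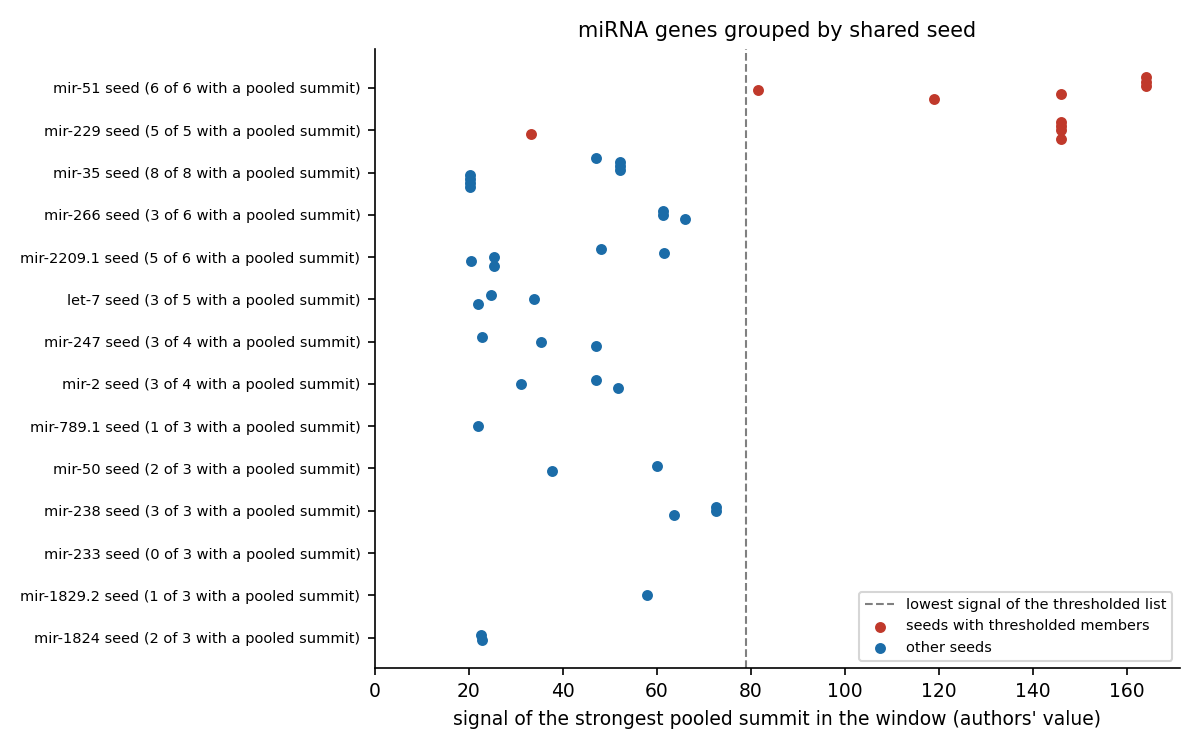
Signal of the strongest pooled summit in the window of each gene, on the pooled list's scale, for seeds shared by 3 or more miRNA genes. Genes without a pooled summit have no point, 2 seeds of the mir-2217 genes with no summit are left out, and the dashed line is the lowest thresholded signal (78.9). The 6 genes of the miR-51 seed lie between 81.5 and 164 and all but mir-63 (33.2) of the mir-229 seed at 146, whereas no gene of another seed reaches the line.

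The developmental timing miRNAs were not among the bound loci. For let-7, which drives the change from larva to adult, the pooled summit had a signal of 21.9 (rank 23100), replicate 1 had 15.6 and replicate 2 had none. Of the 7 members of its family, 4 had a pooled summit, near the 52.3% of all miRNA loci: besides let-7 these were mir-793 at 41.1, mir-241 at 33.9 and mir-795 at 24.6. None was found for mir-48, mir-84 and mir-794. For lin-4, the repressor of lin-14 in the first larval stage, the pooled signal was 52.6 (rank 3228), with 18.9 in replicate 1 and 27.2 in replicate 2, and mir-237 of its family had none.

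The mir-35 family, which is made in the embryo and needed there, had pooled summits at all 8 genes but thresholded ones at none. Of all miRNA loci, 52.3% had a pooled and 6.25% a thresholded summit. The cluster mir-35 to mir-41 lies in an intron of Y62F5A.9 on the other strand. There mir-39, mir-40 and mir-41 shared a summit at 52.2 (rank 3284), with 20.5 in replicate 1 and 33.7 in replicate 2, while mir-35 to mir-38 had 20.2 (rank 27124). In replicate 1 all 8 genes had a summit and in replicate 2 only 4 of 8, beside 29.7% and 35.9% of all miRNA loci. Neighbours in the cluster share summits, so its genes are not separate hits. The separate gene mir-42 had 47.0, with 20.5 in replicate 1 and 26.9 in replicate 2. These signals are all below the 81.5 of mir-53, the weakest bound locus.

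Of 9 listed members of the mir-58 family, related to bantam of flies, 6 had a pooled summit, beside 52.3% of all miRNA loci. The list leaves out Y73B6A.17, annotated as cel-mir-58c and grouped with this family by its seed, which had a pooled signal of 25.4 from the same peak as mir-58.2, no summit in replicate 1 and 26.3 in replicate 2. The gene mir-58.1, in an intron of Y67D8A.2, came closest to the thresholded list of all unbound loci, with 73.0 at rank 1681. Replicate 2 had 71.1 there (rank 635), but replicate 1 had no summit, so this value rests on 1 replicate. For mir-80 the pooled signal was 61.4, with 25.9 in replicate 1 and 32.6 in replicate 2. For mir-82 it was 48.0, and mir-58.2, mir-2209.1 and mir-2209.3 had 25.4, 20.5 and 20.5. No list had a summit for mir-81 and mir-1022. For mir-2209.2 the pooled list had none, although replicate 1 had 21.1 and replicate 2 had 36.6 (rank 2393). Nor was a summit found in any list for mir-124, a miRNA of ciliated neurons, or for lsy-6, which sets left and right fates of a taste neuron pair.

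Behind the thresholded list, the 15 loci with the next highest pooled signals ran from 73.0 to 56.4 (rank 2836). After mir-58.1 came mir-239.2 and mir-239.1, which lie on opposite strands and share a summit at 72.5, with 25.2 in replicate 1 and 43.6 in replicate 2. At mir-71, a miRNA known for its effect on lifespan, the pooled signal was 71.7 (rank 1759), with 28.6 and 43.1 in the replicates. At mir-60 it was 70.0, with 37.1 and 27.0. The rest of the 15 were mir-8186.2 at 66.7, mir-72 at 66.0, mir-8192 at 63.9, mir-238 at 63.7, mir-80, mir-73 and mir-74 with a shared summit at 61.3, mir-90 at 60.0, mir-1829.3 at 57.8 and mir-8201 at 56.4. All but mir-58.1 had a summit in the window in both replicates. The step from the weakest bound locus (81.5) to the strongest unbound one (73.0) was small beside the range of the bound ones.

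The edge of the window mattered for some loci. Just inside lay the summits of mir-353 at 982 bp and mir-66 at 968 bp. Just outside lay those of mir-8190 at 1207 bp (signal 122), mir-1829.2 at 1283 bp (87.1) and mir-71 at 1284 bp (132). For let-7 a thresholded summit with a signal of 106 (rank 791) lay 1851 bp before the annotated 5′ end, which for this gene is that of a model 1732 bp long. Downstream, a summit with a signal of 386, rank 15 of the list, lay 424 bp past the 5′ end of mir-1824, whose nearest protein-coding 5′ end (Y87G2A.18) was 335 bp from that of the miRNA. The gene F09A5.15, antisense to mir-55, had the mir-54 summit 492 bp past its own 5′ end and counted only through its merged partner.

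The proteins that make and use miRNAs were looked at through the same window at the 5′ ends of their genes. Of 19 processing and effector genes, 5 had a thresholded summit in the window, beside the 4.33% of all protein-coding genes. The list is small, was chosen with earlier results of these data known and was not tested, so no excess is read from it. They were alg-5, an Argonaute, with a signal of 261 (rank 61), nhl-2, a cofactor of the silencing complex, with 219 (rank 103), vig-1, a component of that complex, with 201 (rank 146), ain-1, which links Argonautes to the decay machinery, with 182 (rank 198), and cgh-1, an RNA helicase, with 163 (rank 265). For comparison, the strongest signal at a miRNA locus was 164. Their summits lay 812, 849, 432, 873 and 758 bp before the annotated 5′ ends, and with a window of 500 bp upstream and 100 bp downstream only 1 of the 19 remained. Whether the 5′ end of another gene lay closer to these summits was not checked.

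Weaker pooled summits were found at tsn-1 (67.5), xrn-2 (42.3), lin-28 (41.6), alg-1 (40.4), drsh-1 (25.5), dcs-1 (24.7) and xrn-1 (20.1), and none at dcr-1, pash-1, alg-2, ain-2, ebax-1, paxt-1 and hrpk-1. The genes for the core enzymes of miRNA maturation, Drosha (drsh-1), its partner (pash-1) and Dicer (dcr-1), lacked one in the thresholded list. So did most protein-coding genes, of which only 4.33% had a thresholded summit and 41.5% a pooled one. Of 9 classic target genes of let-7, lin-4, lsy-6 and mir-35 miRNAs, nhl-2 alone had a thresholded summit, beside the 4.33% of all protein-coding genes. So few genes cannot be told apart from that share, and this list too was chosen with earlier results known. In the pooled list lin-14 had 47.7, lin-28 had 41.6 and lin-41 had 22.2, while egl-1, daf-12, hbl-1, let-60 and cog-1 had none.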

How the data were processed

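DVE-1 ChIP-seq was taken from peak lists in ce11. Per the text descriptions deposited with them, the authors called 1 list on each replicate and 1 on both replicates pooled, as input for IDR (a test of reproducibility between replicates), and made 1 list thresholded by IDR. The sources used here do not give the aligner, caller or IDR thresholds. Signal is the authors' deposited enrichment value per peak, on a scale that is not stated. A q-value column that falls below 0 was treated as a score of the authors, as deposited, and not used. Summits are the authors' positions. Read depth is unknown, so no value carries a depth-based error.

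Gene models were Ensembl release 115, and gene symbols and sequences came from RefSeq by WormBase ID (261 of 261 matched). Genes overlapping on either strand were merged. Intervals are exact Clopper-Pearson 95% intervals of loci. No test was made, because there is 1 group. Named were all bound loci, the 15 next by pooled signal, and fixed families and pathway genes. The members and lists were chosen with earlier results of these data known. Alternatives were other windows, peak subsets, merging, assignment, distances and single replicates. The assignment of summits to windows was tested on simulated data. Lists in ce10 were not used here, and the mature sequence of mir-65 is not reported here. Scripts ran under Python 3.11.15 with scipy 1.17.1, pandas 2.3.3, numpy 2.4.6 and, for figures, matplotlib 3.10.9.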

Additional observations from a re-analysis of the deposited data

How the results depend on the processing

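The counts depended most on the window and on how summits were assigned. With 500 bp upstream and 100 bp downstream, 10 miRNA loci were bound in the thresholded list, 5 of them intronic, and mir-353, mir-354, mir-56, mir-64, mir-65 and mir-66 dropped out. With 2000 bp upstream and 500 bp downstream, 26 were bound, of which 20 were far from protein-coding genes, 16 intronic and 8 intergenic. With peaks at or above the median signal, 3 intergenic loci remained. With genes on 1 strand within 1000 bp merged, 7 far and 5 intronic loci were bound. When a summit went only to the nearest 5′ end of any gene, 4 loci were bound (mir-229, mir-5549, mir-5595 and mir-53), 3 of them far, 2 intronic and 2 intergenic, and in the pooled list 75 in all, 60 far, 27 intronic and 44 intergenic. When only protein-coding and miRNA genes competed, an alternative chosen after seeing the data, 8 were bound, 7 far, 3 intronic and 5 intergenic, and in the pooled list 34 intronic and 59 intergenic. Pooled peaks overlapped in both replicates left 61 loci, 45 far, 28 intronic and 31 intergenic.

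From the strongest 1447 peaks of a single replicate, 15 to 16 loci were bound, with 12 to 13 far, 9 to 10 intronic and 4 to 6 intergenic. Without replicate 1, 14 of the 16 genes were kept, mir-4920 and mir-53 were lost, and F09A5.15 and mir-58.1 were gained. Without replicate 2, 13 were kept, mir-353, mir-51 and mir-66 were lost, and mir-60, mir-72 and mir-90 were gained. For mir-353 and mir-66 the overlapping replicate 1 peaks ranked 521 and 347, but their summits lay outside the windows of these genes. Whole lists of single replicates, set against the pooled list, gave 76 to 92 loci, 56 to 64 far, 35 to 37 intronic and 36 to 53 intergenic. With the 5′ ends of all protein-coding transcripts, also chosen after seeing the data, 11 of 170 far loci were bound. Of the 9 target genes, 0 and 3 were bound with the narrower and the wider window, and of the 19 processing genes 1 and 6. Other alternatives moved no count beyond 1.5 times. The causes were not tested. No paired analysis was possible because there is 1 group.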
